A study of Homo sapiens with 8 samples.

Results

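The enzymes that make, salvage and clear the precursors of DNA were examined as a set of 9 genes, RRM1, RRM2, RRM2B, TYMS, TK1, DUT, DTYMK, DCK and SAMHD1. They were taken by symbol from a table of 22808 genes, all 9 were found, and all 9 passed the filter on low counts that left 12366 genes for testing. The cells were RD18, a human line of fusion-negative rhabdomyosarcoma derived from the RD line. The 4 treated libraries came from cells transfected with the microRNAs miR-449a and miR-340-5p, and the 4 vehicle libraries from cells given the transfection reagent lipofectamine without RNA, all at 60 h. Treated and vehicle cells therefore differ both in the microRNAs and in having received RNA at all, and a single line was used. The labels do not say whether the 4 libraries of a group are separate cultures, and the p-values then describe only the spread among libraries, which may be technical.

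Cells build DNA from 4 deoxynucleotides whose pools are small and are refilled mainly while DNA is being copied. Ribonucleotide reductase makes the deoxy form from ribonucleotides, thymidylate has a pathway of its own through TYMS, salvage kinases recover free nucleosides, and SAMHD1 breaks deoxynucleotides down again. In dividing cells many of these genes are transcribed in S phase under E2F factors, while RRM2B is known to serve cells outside S phase. The transfected microRNAs carry the following mature sequences in RefSeq (GRCh38.p14), shown because the seed, bases 2 to 8 and here in capitals, is the part that pairs with target mRNAs, and the 2 seeds differ.
miR-449a: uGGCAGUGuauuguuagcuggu
miR-340-5p: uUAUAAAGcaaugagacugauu

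The 2 groups were far apart for the supply enzymes. Of the 9 genes, 7 fell and 2 rose in the miRNA-transfected cells (edgeR quasi-likelihood test, adjusted p under 0.05 over all tested genes). Among all tested genes 34% fell and 33.4% rose, so a call alone is common in this comparison. The median log2 fold change was -2.04 over the 9 genes and -0.0007 over all tested genes, whose quartiles lay at -0.58 and 0.56. The values of the 2 groups did not overlap for any of the 9 genes, and they did not overlap for 58.9% of all tested genes. TK1 had the 4th most negative log2 fold change of the 12366 tested genes, TYMS the 16th and RRM2 the 20th. Whether fewer cells held these transcripts or each cell held less of them cannot be told apart in bulk RNA.

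**Figure D1:**
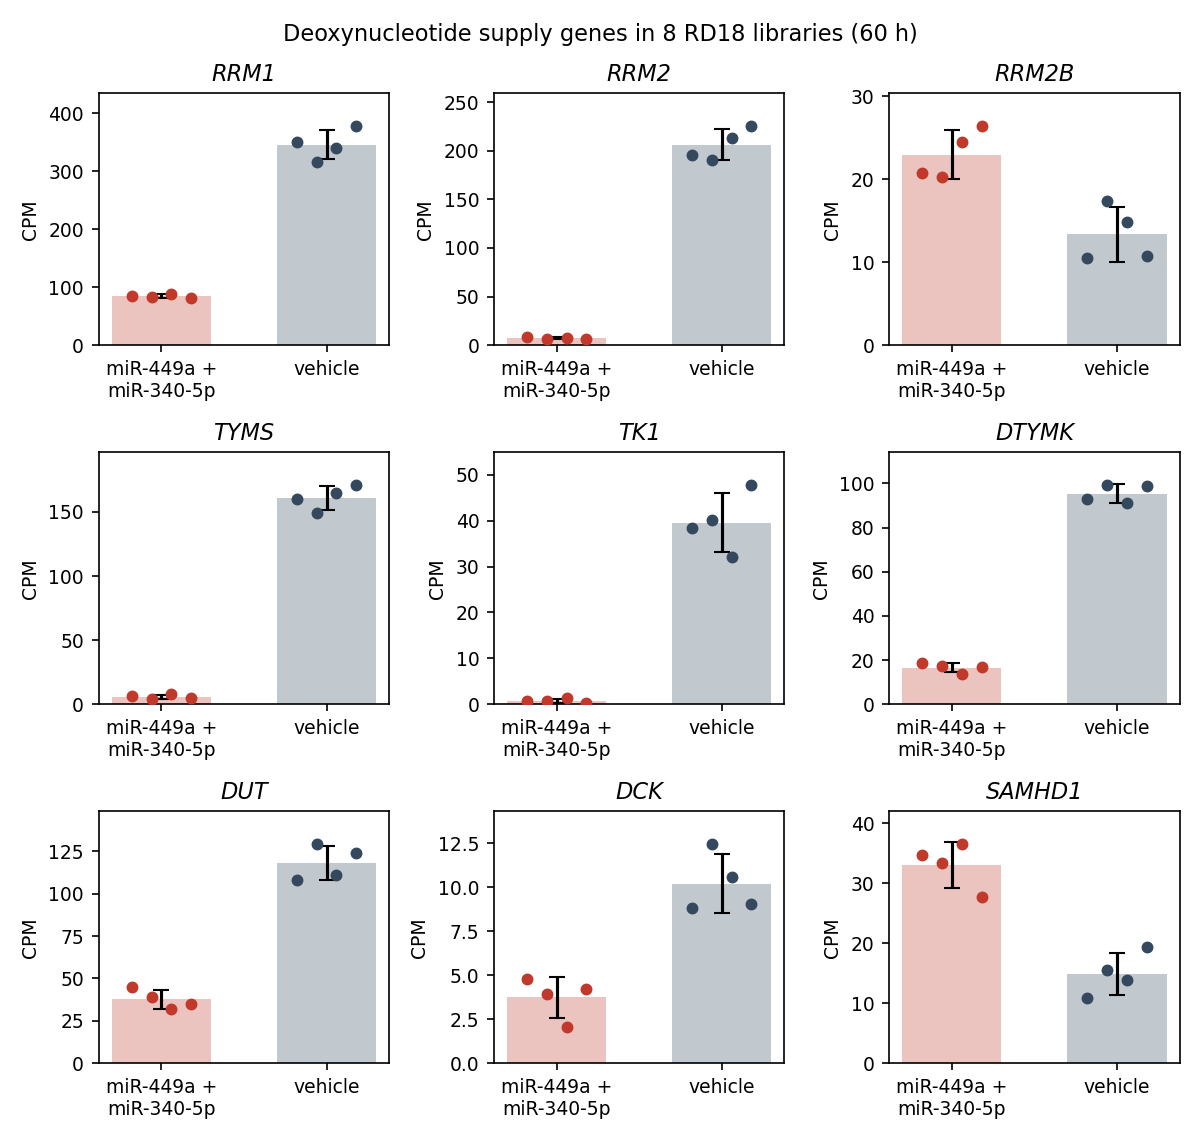
CPM (counts per 1000000 counts of a library, scaled by TMM) of each of the 9 genes on linear axes, in miRNA-transfected (left) and vehicle (right) libraries. Points are libraries, bars are means and whiskers are SD over 4 libraries. In every panel the 2 groups are apart, with RRM2B and SAMHD1 higher and the other 7 genes lower in miRNA-transfected cells.

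Ribonucleotide reductase pairs a large catalytic subunit, RRM1, with a small subunit that is either RRM2, made in S phase, or RRM2B. RRM2 (chromosome 2, 10120698 to 10131419, GRCh38, annotation GENCODE 29) had 8.88, 6.14, 7.57 and 6.76 CPM in the miRNA-transfected libraries, against 196, 191, 213 and 225 CPM in the vehicle libraries. Every treated library lay at a small fraction of the lowest vehicle library. The log2 fold change was -4.80 (SE 0.11, adjusted p = 2.32e-42), a 27.9-fold fall. Exons of the gene AC007240.1 on the same strand share 20.2% of the exon bases of RRM2, and that gene was not in the table used here.

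RRM1 (chromosome 11, 4094707 to 4138876) had 85.2, 82.6, 88.1 and 81.4 CPM in the miRNA-transfected libraries, against 350, 315, 340 and 377 CPM in the vehicle libraries. The treated libraries were tightly grouped and all lay below the vehicle libraries. RRM1 fell 4.10-fold (log2 fold change -2.04, SE 0.07, adjusted p = 1.22e-34).

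RRM2B (chromosome 8, 102204502 to 102239118) went the other way. It had 20.8, 20.3, 24.4 and 26.4 CPM in the miRNA-transfected libraries, against 10.5, 17.3, 14.8 and 10.8 CPM in the vehicle libraries. The groups did not overlap, but the lowest treated and the highest vehicle library were close. RRM2B rose 1.66-fold (log2 fold change 0.73, SE 0.17, adjusted p = 0.00012).

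The balance of the small subunits was read within each library, where scaling between libraries plays no role. RRM2B gave 70.1%, 76.8%, 76.3% and 79.6% of the counts of RRM2B and RRM2 together in the miRNA-transfected libraries, against 5.07%, 8.34%, 6.50% and 4.58% in the vehicle libraries. RRM2B was thus the more abundant of the 2 small-subunit transcripts in all 4 treated libraries and the less abundant in all 4 vehicle libraries. The share was 75.7% ± 4.03 in miRNA-transfected cells and 6.12% ± 1.69 in vehicle cells (SD, n = 4 each), a difference of 69.6 percentage points (exact permutation test over libraries, two-sided, p = 0.0286, the smallest that 4 against 4 allows). The treated library with the fewest counts had 93 for both genes, which gives a 95% Wilson interval from 66.8% to 83.8%. Such intervals cover counting error only, since reads without molecular identifiers are not independent molecules. Divided by exon length, the shares were 74.9% ± 4.11 in miRNA-transfected and 5.89% ± 1.63 in vehicle cells.

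**Figure D2:**
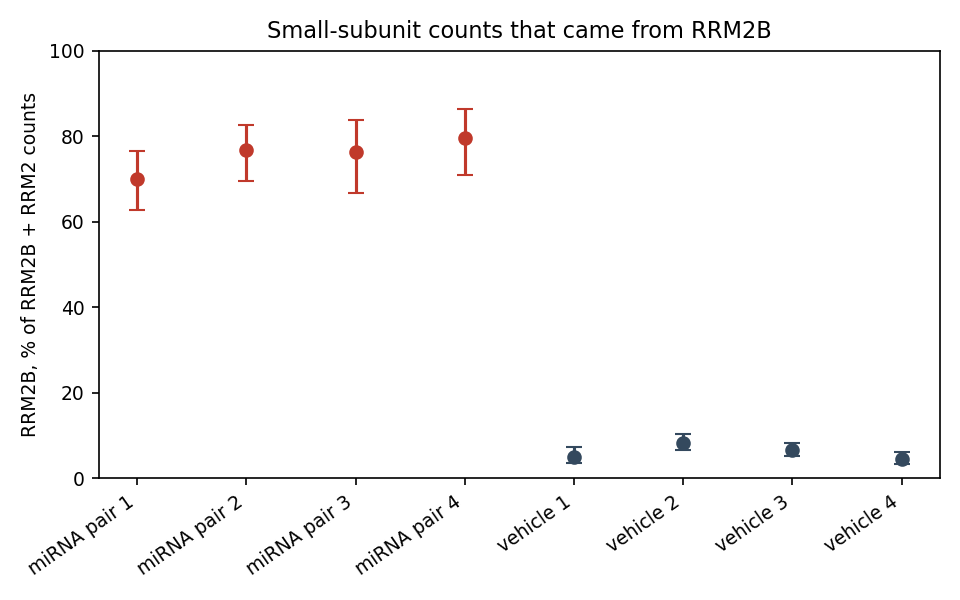
RRM2B counts as a percentage of RRM2B and RRM2 counts in each library, with 95% Wilson intervals (counting error only). The 4 miRNA-transfected libraries lie between 70.1% and 79.6% and the 4 vehicle libraries between 4.58% and 8.34%.

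The large subunit was also set against each small one within a library. The log2 ratio of RRM1 to RRM2 counts was 3.51 ± 0.20 in miRNA-transfected and 0.75 ± 0.07 in vehicle libraries (SD, n = 4 each), a difference of 2.77. That of RRM2B to RRM1 was -1.88 ± 0.19 in miRNA-transfected and -4.71 ± 0.44 in vehicle libraries, a difference of 2.83. Both differences passed the exact permutation test (adjusted p = 0.0355 over 36 pairs of genes).

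Thymidylate is made from deoxyuridylate by TYMS, thymidylate synthase, or recovered from thymidine by TK1, the cytosolic thymidine kinase of dividing cells. TYMS (chromosome 18, 657604 to 673578) had 6.04, 4.09, 7.57 and 4.51 CPM in the miRNA-transfected libraries, against 160, 149, 165 and 171 CPM in the vehicle libraries. Its 29.8-fold fall (log2 fold change -4.90, SE 0.13, adjusted p = 2.46e-40) was close to that of RRM2. Exons of ENOSF1 on the opposite strand cover 39.2% of the exon bases of TYMS, and the strand setting of the counting is not given in the sources used here. ENOSF1 averaged 15.2 CPM in miRNA-transfected and 12.5 CPM in vehicle libraries (adjusted p = 0.244), so the low level of TYMS in treated cells is uncertain to the extent that reads were shared.

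TK1 (chromosome 17, 78174075 to 78187233) had 4, 4, 4 and 1 counts in the miRNA-transfected libraries, against 92, 155, 143 and 190 counts in the vehicle libraries. These are 0.710, 0.682, 1.38 and 0.322 CPM in miRNA-transfected and 38.5, 40.1, 32.1 and 47.7 CPM in vehicle libraries. TK1 had the lowest mean level per exon length of the set in treated cells, and its log2 fold change of -5.68 had an SE of 0.26 (adjusted p = 3.28e-28), above the SE of RRM2 (0.11) and of TYMS (0.13). TK2, the mitochondrial thymidine kinase, moved in the opposite direction, with 13.1, 10.2, 12.7 and 10.9 CPM in miRNA-transfected and 5.86, 4.92, 6.29 and 6.03 CPM in vehicle libraries (log2 fold change 1.02, SE 0.23, adjusted p = 8.22e-05). TK2 gave 94.0% ± 2.88 of the counts of both thymidine kinases in miRNA-transfected libraries and 12.9% ± 2.51 in vehicle libraries (SD, n = 4 each), with no overlap between groups. These shares were not divided by length, and TK2 has 7169 exon bases against 1861 for TK1.

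DTYMK, thymidylate kinase, adds the second phosphate to thymidylate from either source. DTYMK (chromosome 2, 241675742 to 241686991) had 18.6, 17.2, 13.8 and 16.7 CPM in the miRNA-transfected libraries, against 92.9, 99.2, 91.0 and 98.7 CPM in the vehicle libraries. The groups were well separated, and DTYMK fell 5.64-fold (log2 fold change -2.50, SE 0.11, adjusted p = 8.83e-29).

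DUT, the dUTPase, removes dUTP so that uracil stays out of DNA and supplies the substrate of TYMS. DUT (chromosome 15, 48331011 to 48343373) had 44.7, 38.9, 32.0 and 35.1 CPM in the miRNA-transfected libraries, against 108, 129, 111 and 124 CPM in the vehicle libraries. It fell 3.08-fold (log2 fold change -1.62, SE 0.10, adjusted p = 1.11e-22), less than TYMS, which acts next to it. The log2 ratio of DUT to TYMS counts was 2.77 ± 0.50 in miRNA-transfected and -0.45 ± 0.17 in vehicle libraries (SD, n = 4 each), a difference of 3.22 (exact permutation test, adjusted p = 0.0355).

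DCK, deoxycytidine kinase, phosphorylates deoxycytidine, deoxyadenosine and deoxyguanosine and activates several nucleoside drugs. DCK (chromosome 4, 70992538 to 71030914) had 4.79, 3.92, 2.07 and 4.18 CPM in the miRNA-transfected libraries, against 8.79, 12.4, 10.6 and 9.04 CPM in the vehicle libraries. The library with 2.07 CPM rested on 6 counts. DCK fell 2.63-fold (log2 fold change -1.40, SE 0.26, adjusted p = 4.56e-06). Its mitochondrial counterpart DGUOK, deoxyguanosine kinase, averaged 62.1 ± 6.31 CPM in miRNA-transfected and 69.1 ± 5.73 CPM in vehicle libraries and did not pass (log2 fold change -0.16, SE 0.10, adjusted p = 0.129). It passed as lower without vehicle replicate 2 (-0.22, adjusted p = 0.049).

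SAMHD1, a triphosphohydrolase, breaks deoxynucleoside triphosphates down and is known as a restriction factor for viruses in resting cells. SAMHD1 (chromosome 20, 36889773 to 36951901) had 34.8, 33.4, 36.5 and 27.7 CPM in the miRNA-transfected libraries, against 10.9, 15.5, 13.9 and 19.3 CPM in the vehicle libraries. The groups did not overlap, and SAMHD1 rose 2.18-fold (log2 fold change 1.12, SE 0.15, adjusted p = 1.62e-09). Exons of TLDC2 on the opposite strand cover 10.3% of the exon bases of SAMHD1, and TLDC2 had 3 counts in all miRNA-transfected and 5 in all vehicle libraries. All 10 tested interferon-response markers rose, against 33.4% of all tested genes. The summed level of these markers was 3560 to 3918 CPM in miRNA-transfected and 435 to 446 CPM in vehicle libraries. The part of that response in the rise of SAMHD1 was not tested. CMPK2, an interferon-induced mitochondrial kinase of dCMP and dUMP, averaged 13.5 ± 0.97 CPM in miRNA-transfected and 1.98 ± 0.40 CPM in vehicle libraries (SD, n = 4 each, log2 fold change 2.80, SE 0.28, adjusted p = 1.82e-13).

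**Figure D3:**
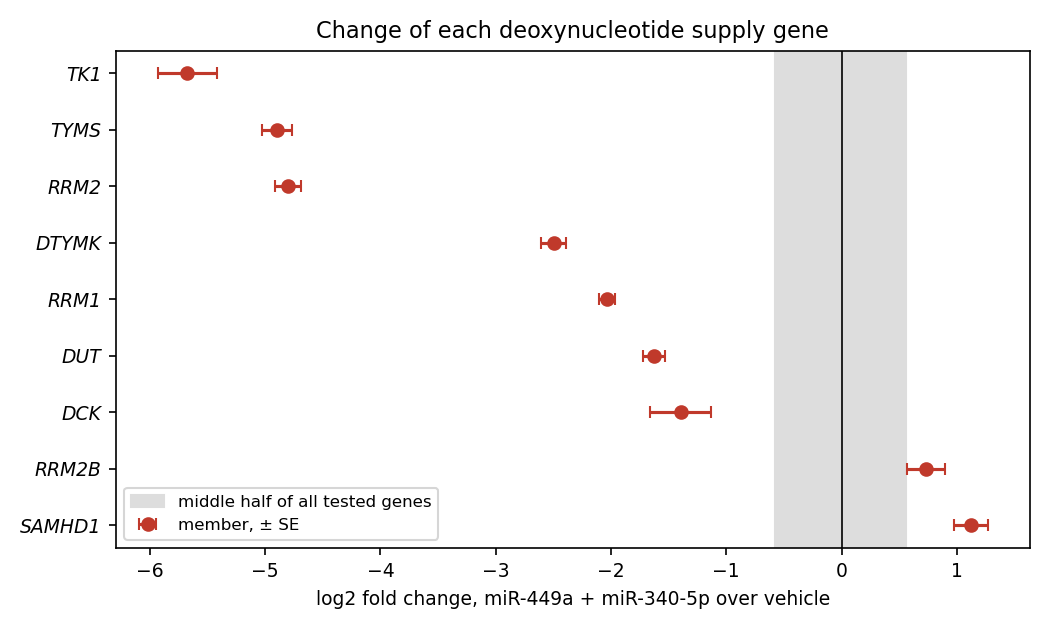
Log2 fold change (miRNA-transfected over vehicle) of each of the 9 genes with its standard error, from the largest fall at the top to the largest rise. The grey band runs between the quartiles of all tested genes, from -0.58 to 0.56, and all 9 estimates lie outside it.

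The 9 genes were then compared with each other through their log2 count ratios within a library, over all 36 pairs. In 29 pairs the ratio differed between groups (exact permutation test, two-sided, p = 0.0286, adjusted p = 0.0355), and in 7 pairs it did not pass. With all 8 libraries only this smallest possible p passed, so a pass means that the ratios of the groups did not overlap. The pairs share genes and are not independent. SAMHD1 and RRM2B did not pass against each other (difference 0.37, adjusted p = 0.303), and neither did any pair among DCK, DUT and RRM1, whose differences ran from 0.19 to 0.57. Among the steepest falls, the log2 ratio of RRM2 to TYMS was 0.42 ± 0.28 in miRNA-transfected and 0.35 ± 0.05 in vehicle libraries (SD, n = 4 each), a difference of 0.07. TK1 set against RRM2 and against TYMS gave differences of 0.78 and 0.71, with adjusted p = 0.0964 and 0.0664 in the exact test. Without miRNA-transfected replicate 3, all 3 pairs of RRM2, TYMS and TK1 passed, with RRM2 to TYMS, RRM2 to TK1 and TYMS to TK1 differences of 0.21, 1.06 and 0.85 (adjusted p = 0.0321, exact permutation test). TYMS to TK1 also passed with 0 in place of 0.5 added to the counts (0.95, adjusted p = 0.0343, exact permutation test). DTYMK differed from each of the other 8 genes, but its pair with DCK (1.06) was lost without vehicle replicate 1 (1.01, adjusted p = 0.0709), 3 (1.10, 0.0686) or 4 (0.99, 0.0686).

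Levels of different genes were set side by side as CPM per kilobase of exon. In miRNA-transfected cells RRM1 stood highest at 20.2 ± 0.72, then DUT at 10.3 ± 1.49, DTYMK at 6.77 ± 0.84, RRM2B at 4.14 ± 0.53 and SAMHD1 at 2.94 ± 0.34. TYMS at 2.25 ± 0.64, RRM2 at 1.38 ± 0.22, DCK at 1.16 ± 0.36 and TK1 at 0.415 ± 0.24 came last (SD, n = 4). In vehicle cells RRM1 was also highest at 82.8 ± 6.10, then TYMS at 65.3 ± 3.77, DTYMK at 38.9 ± 1.69, RRM2 at 38.7 ± 2.99, DUT at 32.1 ± 2.77 and TK1 at 21.3 ± 3.45. DCK at 3.16 ± 0.52, RRM2B at 2.41 ± 0.60 and SAMHD1 at 1.32 ± 0.31 followed at a distance. Neighbours with overlapping ranges were SAMHD1 and TYMS, TYMS and RRM2, RRM2 and DCK, and DCK and TK1 in miRNA-transfected cells, and DTYMK and RRM2, and DCK and RRM2B, in vehicle cells. With the longest coding transcript as the length, SAMHD1 stood above RRM2B in both groups (6.25 and 4.66 in miRNA-transfected, 2.82 and 2.71 in vehicle cells), so the order of these 2 genes is uncertain.

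**Figure D4:**
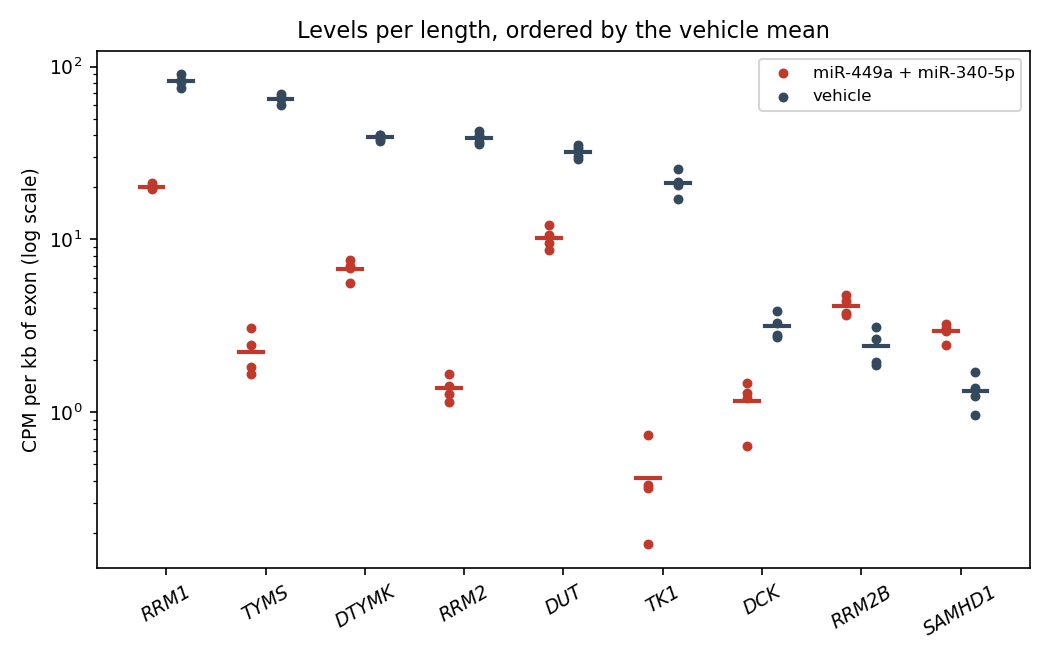
CPM per kilobase of exon on a log axis for the 9 genes, ordered by the vehicle mean. Points are libraries and bars are means, with miRNA-transfected libraries left of vehicle libraries. RRM1 is highest in both groups, and RRM2B and SAMHD1 are above RRM2, TYMS and TK1 by their means in miRNA-transfected cells only.

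The wider pathways around these enzymes were taken as lists. Over 8 lists of nucleotide metabolism and its regulators, 101 of 104 listed genes were tested. Of these, 23 rose, 56 fell and 22 did not pass, against 33.4% higher and 34% lower among all tested genes. The median log2 fold change was -0.46, against -0.0007 over all tested genes. Of 13 genes of purine synthesis, 10 fell and 2 rose (median -0.67). By smallest adjusted p, and not by fold, the falls were led by PAICS, which joins 2 steps of the pathway (3.02-fold lower). IMPDH1 of guanylate synthesis (5.29-fold lower) and GMPS (1.92-fold lower) came next. ADSS of adenylate synthesis rose 2.21-fold, and its muscle paralog ADSSL1 also rose (log2 fold change 0.86, named after its value was seen). Of 5 genes of pyrimidine synthesis, 3 fell and 1 rose (median -0.54). These were CAD, which starts the pathway (1.61-fold lower), CTPS1 (1.74-fold lower), DHODH (1.45-fold lower) and CTPS2 (1.88-fold higher). The call of DHODH was lost with DESeq2 (adjusted p = 0.0514), with library size alone (0.0663) and without miRNA-transfected replicate 1 (0.0542), and that of CTPS2 without miRNA-transfected replicate 2 (0.0692).

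Some folate enzymes feed the TYMS reaction with a carbon unit. Of 13 tested genes of folate and one-carbon supply, 8 fell and 3 rose (median -0.59). The shares over all tested genes were 34% lower and 33.4% higher. GGH, which trims folate polyglutamates, fell 6.55-fold and MTHFD1 2.53-fold, whereas ALDH1L2, a mitochondrial folate dehydrogenase, rose 4.09-fold. MTFMT, which formylates the mitochondrial initiator tRNA, also rose (log2 fold change 0.74, named after its value was seen).

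Other nucleoside and nucleotide kinases moved both ways, with 7 of 19 higher and 6 lower (median -0.08). Among all tested genes 33.4% rose and 34% fell, so these counts are near the shares of the whole table. ADK, adenosine kinase, fell 4.62-fold, and the nucleoside diphosphate kinases NME1 and NME4 fell 1.82-fold and 1.55-fold. The NME genes did not all fall, since NME3 rose 2.39-fold and NME7 1.52-fold. NME2 fell with overlapping groups and NME6 did not pass (these NME genes were named after their values were seen). Of 9 tested salvage and interconversion genes, 4 fell and 3 rose (median -0.17), against the same shares of all tested genes. Among them ADA, adenosine deaminase, fell 1.58-fold, HPRT1 1.71-fold and AMPD2 1.33-fold, and UPP1, uridine phosphorylase, rose 1.69-fold. APRT and DCTD, the deaminase that feeds dCMP into the TYMS reaction, also rose (log2 fold changes 0.30 and 0.34, named after their values were seen). The libraries of the groups overlapped for UPP1 and APRT but not for DCTD.

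Enzymes that clear or clean nucleotide pools had no common direction. Of 13 tested, 6 fell, 2 rose and 5 did not pass (median -0.19), against 34% lower and 33.4% higher among all tested genes. DCTPP1, which hydrolyses dCTP and modified forms of it, fell 4.12-fold, and NUDT1, which removes oxidized purine nucleotides, fell 2.06-fold. NT5E, the cell-surface nucleotidase CD73, had 94.1, 97.7, 89.9 and 98.2 CPM in miRNA-transfected and 2.09, 5.18, 2.69 and 4.27 CPM in vehicle libraries, and rose 25.7-fold (adjusted p = 5.23e-35). ENTPD6 was the other gene that rose (log2 fold change 0.68, named after its value was seen). With library size alone, 4 genes of this list were called higher.

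Of 9 transporters, 4 fell and 4 rose (median -0.38), against 34% lower and 33.4% higher among all tested genes. SLC29A1, the equilibrative nucleoside transporter ENT1 that brings thymidine and nucleoside drugs into cells, had 9.23, 10.2, 15.8 and 6.44 CPM in miRNA-transfected and 186, 177, 203 and 189 CPM in vehicle libraries, an 18.5-fold fall (adjusted p = 1.15e-36). SLC29A2 fell 2.23-fold and the mitochondrial pyrimidine nucleotide carrier SLC25A36 1.67-fold, while the nucleotide exporter ABCC4 rose 2.01-fold.

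Of 20 regulators of the supply genes, 15 fell and 1 rose (median -1.41), against 34% lower and 33.4% higher among all tested genes. MYBL2, a transcription factor of cycling cells, fell 27.9-fold, FOXM1 15.6-fold, CDK4 5.39-fold and CCNF, the cyclin that marks RRM2 protein for degradation, 8.14-fold. RBL2, a pocket protein of resting cells, was the gene that rose (log2 fold change 0.46, named after its value was seen), a call lost without vehicle replicate 3. All 15 markers of S phase and mitosis fell, against 34% of all tested genes. The summed level of these markers was 290 to 398 CPM in miRNA-transfected and 3504 to 3844 CPM in vehicle libraries. Their part in the fall of the 7 supply genes was not tested.

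**Figure D5:**
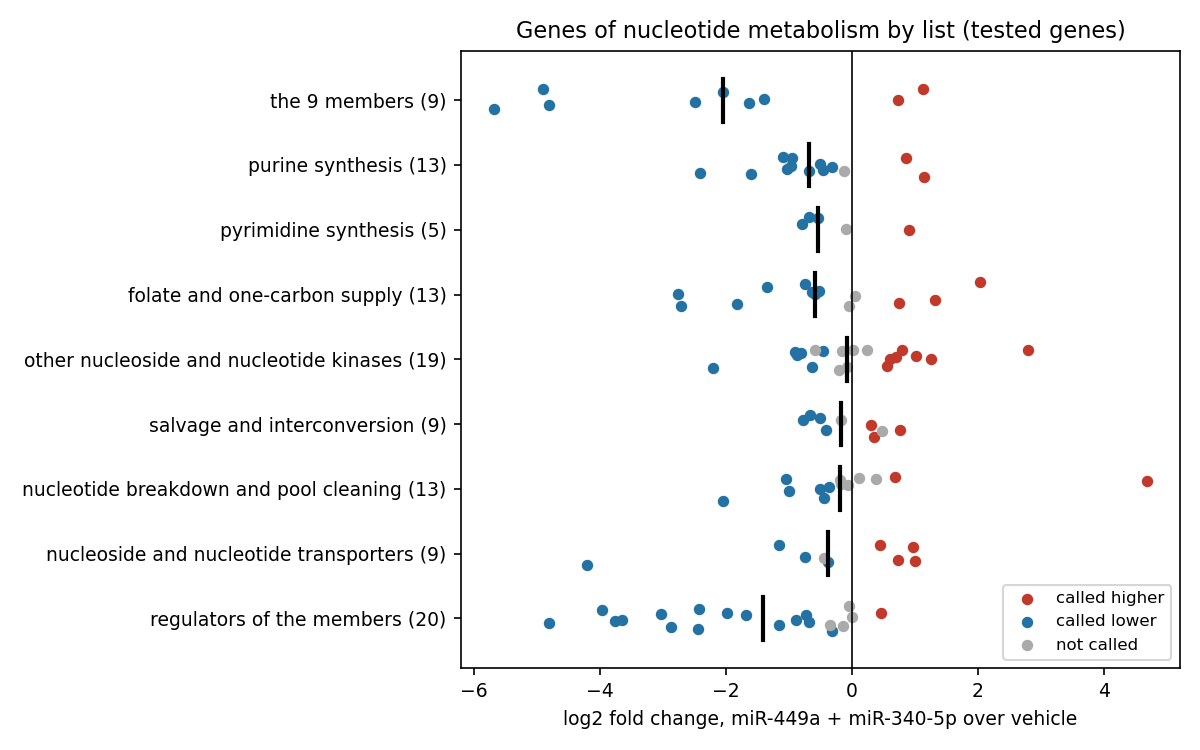
Log2 fold change (miRNA-transfected over vehicle) of every tested gene of each list, with the number of tested genes in parentheses. Red points are genes called higher, blue points genes called lower, grey points genes not called, and black bars medians. The 9 supply genes have a median of -2.04 and the regulators one of -1.41, whereas the other lists have medians between -0.67 and -0.08.

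Genes with the most similar profiles over the 8 libraries were sought among 10752 others with a mean of at least 5 CPM, by the root mean square difference of log2 CPM after each profile was centred. For RRM2 these were TYMS (0.166), the mitotic kinase gene AURKB (0.171) and CDKN3 (0.198). For RRM2B they were FAM174A (0.103), the mitochondrial protease gene CLPX (0.114) and PCMTD1 (0.129), and for SAMHD1 they were ZNF253 (0.0841), TMEM254 (0.102) and SYMPK (0.108). With 2 groups of libraries this measure mostly picks genes of like fold change.

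The DNA word CACTGCC pairs with the miR-449a seed, and CTTTATA pairs with that of miR-340-5p. Both were looked up in the longest 3′ UTR of each gene's coding transcripts. CACTGCC occurs in 17.9% and CTTTATA in 19.9% of 10525 tested genes with a 3′ UTR, and either word in 33.4%. Of the 9 supply genes, 3 hold a word and 6 hold neither, among them RRM2 and TYMS. TK1 holds CACTGCC once, at chr17:78174719-78174725 on the minus strand. SAMHD1, which rose, holds it at 2 places, chr20:36892002-36892008 and chr20:36891676-36891682, also on the minus strand. RRM2B, which also rose, holds CTTTATA at bases 1532 and 3585 of its 3′ UTR. The sites of TK1 and SAMHD1 are shown with the word in capitals, because they are the letters of these transcripts that match the miR-449a seed. A match is a description of the letters and not evidence of binding.
TK1 site: ctcccttcctgcCACTGCCgcctactggac
SAMHD1 site, first: agagggccttccCACTGCCcagcctggaga
SAMHD1 site, second: gcacaaacactgCACTGCCtgtgctgaaat

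Promoter windows from 250 bases before to 50 bases after each start were taken from RefSeq (GRCh38.p14), and 8 of the 9 genes had 1 to 4 windows, 13 in all. The E2F words TTTCCCGC, TTTGGCGC, TTTGCCGC and TTTCGCGC, read on both strands, occur in 3 of the 13 windows and in 3.32% of 35116 windows of all genes. Those windows belong to TYMS, DUT and DCK. The word CCAAT, bound by NF-Y, occurs in 6 of 13 windows and in 34.6% of all windows, and the cell cycle homology region words TTTGAA and TTCGAA in 3 of 13 and 16.4%. The interferon word GAANNGAAA occurs in 1 window of DUT and in 7.66% of all windows, and in none of SAMHD1. None of these words overlaps another in the windows of these genes. Windows of 1 gene can overlap, and a missing word says only that these letters are not in the window.

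Windows of 3 genes with the steepest falls and of SAMHD1, which rose, are given with E2F words and CCAAT, or their reverse complements, in capitals. RRM2 (chr2:10122489-10122788, plus strand) has 3 CCAAT words, at 123, 93 and 66 bases before the start. TYMS (chr18:657403-657702, plus strand) has an E2F word 39 bases before the start. TK1 (chr17:78187003-78187302, minus strand) has 2 CCAAT words, read on the strand opposite to the gene, 77 and 46 bases before the start. SAMHD1 (chr20:36951659-36951958, minus strand) has 2 CCAAT words on the strand of the gene, 49 and 38 bases before the start.
RRM2: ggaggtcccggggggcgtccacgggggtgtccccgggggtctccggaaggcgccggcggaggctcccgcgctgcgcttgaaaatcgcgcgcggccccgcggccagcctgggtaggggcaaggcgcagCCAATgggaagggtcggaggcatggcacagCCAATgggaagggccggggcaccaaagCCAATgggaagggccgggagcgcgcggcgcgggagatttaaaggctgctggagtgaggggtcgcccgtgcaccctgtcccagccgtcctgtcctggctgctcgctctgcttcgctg
TYMS: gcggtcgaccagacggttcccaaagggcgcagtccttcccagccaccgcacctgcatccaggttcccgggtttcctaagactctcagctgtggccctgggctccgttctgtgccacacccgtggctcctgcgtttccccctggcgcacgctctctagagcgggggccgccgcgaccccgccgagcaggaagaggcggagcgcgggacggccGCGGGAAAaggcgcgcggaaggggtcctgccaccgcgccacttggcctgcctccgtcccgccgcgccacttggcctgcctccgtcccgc
TK1: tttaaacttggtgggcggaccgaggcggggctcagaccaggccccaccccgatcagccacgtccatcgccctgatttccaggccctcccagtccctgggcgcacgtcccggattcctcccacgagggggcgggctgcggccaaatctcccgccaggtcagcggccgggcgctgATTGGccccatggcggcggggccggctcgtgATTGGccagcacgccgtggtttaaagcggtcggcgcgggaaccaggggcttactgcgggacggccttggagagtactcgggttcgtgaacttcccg
SAMHD1: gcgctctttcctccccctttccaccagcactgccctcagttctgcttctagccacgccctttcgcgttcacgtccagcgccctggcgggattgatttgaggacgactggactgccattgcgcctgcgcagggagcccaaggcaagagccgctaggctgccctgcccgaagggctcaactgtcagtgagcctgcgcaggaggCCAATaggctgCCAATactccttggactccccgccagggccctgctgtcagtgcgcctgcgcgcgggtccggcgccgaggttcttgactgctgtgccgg

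Library totals ran from 2842165 to 5569342 counts in miRNA-transfected and from 2567737 to 4650213 counts in vehicle libraries. Of 10 muscle lineage markers, 8 were tested and all 8 fell. Over all tested genes 34% fell and 33.4% rose, which applies to the marker counts below as well. The summed level of the 10 markers was 1001 to 1033 CPM in miRNA-transfected and 1581 to 1656 CPM in vehicle libraries. CHRNA1 gave the largest part, with 609 to 644 CPM in miRNA-transfected and 797 to 836 CPM in vehicle libraries. MYOG had 0.322 to 1.07 CPM in miRNA-transfected and 8.79 to 12.9 CPM in vehicle libraries. Transcripts of the lineage of the label were thus present in both groups, although MYOG was near the floor in miRNA-transfected libraries. MYF6 had 2 counts in miRNA-transfected and 1 in vehicle libraries. Leukocyte markers summed to at most 2.39 CPM in miRNA-transfected and 3.01 CPM in vehicle libraries, and endothelial markers to at most 1.61 and 3.37 CPM. Of 6 fibroblast markers, 3 were tested, 1 rose and 1 fell, with sums of 197 to 222 CPM in miRNA-transfected and 145 to 151 CPM in vehicle libraries. Of 5 epithelial markers, 3 were tested and all 3 rose, with sums of 71.9 to 83.3 CPM in miRNA-transfected and 38.6 to 49.7 CPM in vehicle libraries. Without TMM, when only library totals set the scale, the median of the tested genes moved by 0.14 on the log2 scale, and each of the 9 supply genes still had its direction and its call.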

How the data were processed

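RNA of RD18 cells was made into libraries with a stranded mRNA kit, per the labels. The authors deposited a table of raw counts by gene symbol, and its columns were matched to samples by the library code. GRCh38 is the build in the submitters' processing notes, which also list HTSeq 0.5.3p3, DESeq2, SAMtools 0.1.19.24 and TopHat2 2.0.13 with no roles. The sources used here give neither the annotation nor the strandedness used in counting.

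Genes were kept by filterByExpr (minimum count 10, minimum total 15), normalised by TMM and compared in R 4.3.3 by the quasi-likelihood test of edgeR 4.0.16 (glmQLFit with robust estimation, glmQLFTest, a two-group design without covariates, two-sided, Benjamini-Hochberg adjustment over 12366 genes, threshold 0.05). Standard errors are the absolute log2 fold change over the square root of F. Ratios of 2 genes within a library used counts plus 0.5 and an exact permutation test over the 8 libraries, adjusted over 36 pairs. Exon lengths and 3′ UTRs (at least 50 bases) came from GENCODE 29, and the longest coding transcript as a length was added after the data were seen. Alternatives were DESeq2 1.42.0, limma-voom (limma 3.58.1), a replicate block, different filters and scalings, removal of mitochondrially encoded genes, and removal of each library in turn.

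The 9 genes and all lists were chosen with earlier results of these data known. Genes named were the 9, up to 4 per list with the smallest adjusted p and a mean of at least 1 CPM, the partners TK2, DGUOK, CMPK2 and NT5E and the 3 most similar profiles for RRM2, RRM2B and SAMHD1. Replicate pairs had a chi-square per gene of at least 2.21, above the value near 1 that sampling noise alone would give, and each library was kept as its own replicate. Results for some of these genes and for 1 marker list are not reported here. Of the columns, 0 were left unmapped.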

Additional observations from a re-analysis of the deposited data

Results flagged for a closer look

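In 104 groups of 4 libraries, 3 held a library far from the other 3, where chance flags about 1 in 20. CLPX, one of the genes with a profile like that of RRM2B, had 58.6 CPM in miRNA-transfected replicate 4 and 45.7 to 46.9 CPM in the other 3. SLC25A36 had 94.95 CPM in vehicle replicate 4 and 83.1 to 84.1 CPM in the other 3. UPP1 had 17.1 CPM in vehicle replicate 3 and 9.62 to 10.9 CPM in the other 3. None of the 9 supply genes and not the RRM2B share was among them.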

How the results depend on the processing

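All 9 supply genes kept their direction and their side of the threshold under all 17 alternatives. Their values moved most for TK1, whose log2 fold change ran from -5.94 to -5.51, while RRM2B ran from 0.63 to 0.87 (largest adjusted p = 0.00165, without vehicle replicate 4), DCK from -1.54 to -1.25 and SAMHD1 from 1.03 to 1.28. Replicate numbers are shared by both groups, but no label says that they mark a common culture, and same-numbered libraries deviated together by a correlation of only 0.0135 to 0.0555. Each miRNA-transfected library still correlated best with its own number, a hint from the data and not the design. With the replicate block the calls were 4102 higher and 4171 lower, against 4125 and 4199 without it. Permuting only within replicate numbers allows no p under 0.125, so with that block 0 of the 36 ratios passed, and the RRM2B share difference of 69.6 percentage points had p = 0.125 in the exact test. Leaving out 1 library gave from 28 to 32 of 36 ratios past the threshold and share differences from 68.27 to 71.45 percentage points. The counts of called genes over the whole table and in each list stayed within 1.5 times their value, except those of higher calls in the breakdown list (4 with library size alone), the pyrimidine list (0 without miRNA-transfected replicate 2) and the regulators (0 without vehicle replicate 3). Depth limits TK1 and DCK most, with 13 and 69 counts over all miRNA-transfected libraries.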

Other observations

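TYMSOS, the non-coding transcript that starts on the opposite strand at the TYMS promoter, had 0 counts in the miRNA-transfected libraries and 27 in the vehicle libraries. It was below the filter on low counts and was not tested. It is named here after its values were seen, and 7.41% of the exon bases of TYMS are covered by it. MOB1B, on the same strand as DCK with exons that cover 6.17% of the exon bases of DCK, averaged 16.7 CPM in miRNA-transfected and 19.1 CPM in vehicle libraries and did not pass (edgeR adjusted p = 0.292).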
